A study of Mus musculus with 16 samples.

Results

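The mitochondrial ribosomal protein genes are the nuclear genes for the protein subunits of the ribosome inside mitochondria. They were taken here as every gene whose symbol begins with *Mrpl* or *Mrps* followed by a digit, which gave 78 genes of the 15386 in the RNA-seq table and the same 78 of the 13490 in the m6A table. All 78 passed the filter on low counts in both tables, where 11979 and 11447 genes were tested. By subunit, 51 encode proteins of the large subunit, 26 encode proteins of the small subunit, and *Mrps36* carries the family's symbol although its product is a component of the alpha-ketoglutarate dehydrogenase complex.

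The mitochondrial ribosome translates the few messenger RNAs that are made from mitochondrial DNA, all of which encode core subunits of the respiratory chain and of ATP synthase. Its RNAs come from mitochondrial DNA, whereas its proteins are made in the cytosol and imported, so that both genomes must contribute to each ribosome. Some of its proteins have bacterial counterparts and others exist only in mitochondria. Erythroid progenitors depend on mitochondria for heme synthesis as well as for respiration, and they lose these organelles at the end of maturation.

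The cells were sorted from the bone marrow of adult C57BL/6 mice. RNA-seq libraries, made by Smart-seq2 with oligo-dT priming, came from control CFU-E cells (n = 3) and from *Mettl3*-deficient CFU-E cells with low Kit (n = 3), in short Kit-lo. CFU-E cells are late erythroid progenitors, sorted as cells that lack lineage markers, CD16/32, CD41, CD34 and Sca1 and carry Kit and CD71. Mettl3 is the catalytic subunit of the enzyme that places m6A on messenger RNA. According to the study's methods, the deficient mice were *Mettl3* fl/fl with an *EpoR-tdTomato-Cre* allele, which recombines in erythroid cells and in erythroblastic island macrophages, while the labels of the control libraries give no genotype beyond the word control. For m6A, IP libraries (n = 2) and input libraries (n = 2) were made by SLIM-seq, a low-input immunoprecipitation of m6A-containing RNA, from control CFU-E cells alone. The RNA-seq groups thus differed in genotype and in the Kit gate, which cannot be told apart, since control Kit-lo cells were not analysed here.

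RNA-seq totals were 17429262 to 21329242 counts and m6A totals 19421059 to 37142742. *Mettl3* itself had 115, 123 and 129.8 CPM (counts scaled to a common library size) in control, and 117, 127 and 108 CPM in those labelled Kit-lo, with overlapping groups and a log2 fold change of -0.07 ± 0.10 (SE, adjusted p = 0.634 by edgeR). A count over the whole gene also takes in reads from exons outside a floxed segment, so the direction of each difference below rests on the labels. *Kit* followed them, at 544, 629 and 622 CPM in control and 68.5, 53.1 and 44.0 CPM in the libraries labelled Kit-lo (log2 fold change -3.44, adjusted p = 4.31e-07). The summed level of 5 late erythroid markers was 139 to 167 CPM in control and 1506 to 2559 CPM in the libraries labelled Kit-lo, while 5 progenitor markers summed to 3015 to 3112 and 3007 to 3143 CPM. The progenitor sum held opposite differences, since *Kit* fell as above. *Klf1* (means of 958 and 1444 CPM) and *Epor* (225 and 340 CPM) rose, each with a log2 fold change of 0.59. *Tfrc* and *Gata1* were not called (adjusted p = 0.248 and 0.533 by edgeR). Macrophage markers summed to 8.01 to 12.3 and 7.90 to 8.35 CPM with *Adgre1* under 1 CPM, granulocyte markers to 19.4 to 28.7 and 3.20 to 13.4 CPM, megakaryocyte markers to 4.31 to 6.63 and 6.73 to 16.0 CPM, and lymphoid markers to 35.5 to 40.8 and 8.93 to 16.2 CPM. The lymphoid sum was mostly *Ptprc* (means of 37.4 and 10.3 CPM), while *Cd79a* (0.194 and 0.688 CPM) and *Cd3e* (0.280 and 0.377 CPM) went the other way. Most of the granulocyte sum was *Mpo* (19.6 and 5.01 CPM), whereas *S100a8* was higher (0.073 and 0.849 CPM). Of the megakaryocyte markers, *Itga2b* and *Gp9* rose and *Pf4* was lower (1.12 and 0.221 CPM). The part of these differences in the results below was not tested, and in bulk libraries fewer cells of a type and less RNA per cell cannot be told apart. No label says that the libraries of a group came from separate animals, so the p-values measure the spread between these libraries, which may be technical.

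In the RNA-seq of control CFU-E, the family as a whole was counted at levels that spanned 2 orders of magnitude. The mean level of a member in control was 3.18 to 585 CPM, with a median of 83.6 CPM. Per kilobase of annotated exon, which allows genes to be compared, the highest level was that of *Mrpl12*, the protein of the ribosome's flexible stalk, at 397, 349 and 399 CPM per kilobase. *Mrpl36* followed at 196, 183 and 193, *Mrps28* at 186, 178 and 164, *Mrpl34* at 174, 162 and 169.8, and *Mrpl2*, a protein near the catalytic center of the large subunit, at 169.6, 167 and 161 CPM per kilobase. The 3 libraries of *Mrps28*, *Mrpl34* and *Mrpl2* overlapped on this scale, whereas *Mrpl12* stood above every other member in every library. The lowest per kilobase were *Mrpl13* (mean 1.39), *Mrpl20* (1.84 to 1.96), *Mrps10* (2.75 to 3.10), *Mrpl58* (2.75 to 3.66) and *Mrps22* (3.53 to 4.14). Members of one complex were thus counted at very unequal levels. These lengths are of the union of annotated exons, which can be far longer than a single transcript. They were 7936 against 1223 bases for *Mrpl13*, 8079 against 1018 for *Mrps10*, 3991 against 1197 for *Mrps22* and 3690 against 884 for *Mrps18a*. High and low ranks may therefore differ with transcript lengths. The ranking also holds for the RNA-seq protocol only. The input libraries came from control CFU-E cells too, and their CPM over RNA-seq CPM had a median ratio of 2.88 over the members. The ratio was 85.9 for *Mrpl20*, 26.0 for *Mrps22*, 17.4 for *Mrpl13*, 16.0 for *Mrpl58* and 9.44 for *Mrps10*. Among the highest members named above, it ran from 0.550 (*Mrps28*) to 2.64 (*Mrpl36*).

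Most members differed little between the groups, and the members that did differ went mainly up. The differential genes were defined by a fold change of at least 1.5 and an adjusted p under 0.05 by edgeR's quasi-likelihood test. By this rule 9 members (11.5%) were higher in the libraries labelled Kit-lo and 2 (2.56%) were lower, where 12.1% and 9.83% of all genes tested were called in these directions. The share that rose was thus near that of all genes and the share that fell was below it. By adjusted p alone, 26 members (33.3%) were higher and 10 (12.8%) were lower, against 17.6% and 16.9% of all genes, and 42 were not called. Of the members called by adjusted p, 25 differed by less than 1.5-fold. Standard errors had a median of 0.10 over the members and 0.18 over all genes tested, so smaller differences could pass in the members. The part of this precision in the shares was not tested. The 3 libraries of each group did not overlap for 32 members that were higher and 20 that were lower, against 23.5% and 24% of all genes. The median log2 fold change was 0.12 over the members and 0.0080 over all genes tested. Summed over the 78 genes, the level was 7554, 7201 and 7459 CPM in control and 8714, 8437 and 8741 CPM in the libraries labelled Kit-lo, with no overlap between groups.

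**Figure D1:**
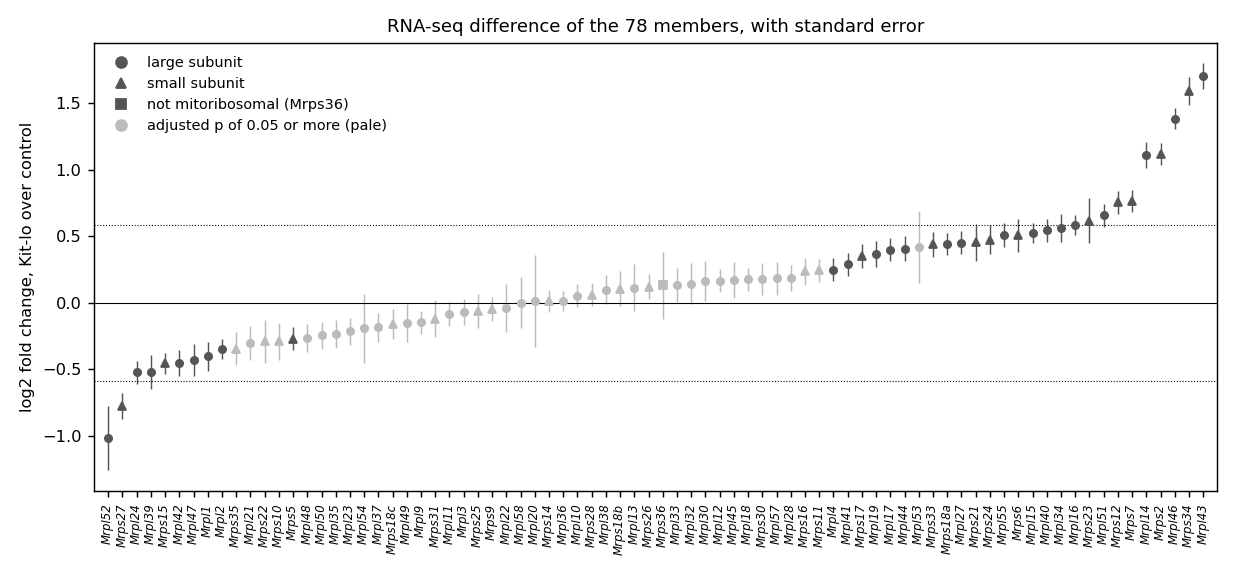
Log2 fold change of the libraries labelled Kit-lo over control for the 78 members in order of size, with bars of 1 standard error (n = 3 and 3). Dark symbols passed an adjusted p of 0.05, dotted lines mark a fold of 1.5, and 5 members stand apart at the right with log2 fold changes from 1.11 to 1.70.

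The largest rise was that of *Mrpl43*, which encodes a mitochondrion-specific protein of the large subunit and lies at chr19:45004829-45006442 on the minus strand (GRCm38, the build named mm10). It was at 61.5, 61.7 and 63.4 CPM in control and rose to 208, 181 and 219 CPM in the libraries labelled Kit-lo. The groups were far apart, with a log2 fold change of 1.70 ± 0.10 and an adjusted p of 2.44e-06. *Mrps34*, for a mitochondrion-specific protein that the small subunit needs to be stable, lies at chr17:24895116-24897502 on the plus strand. Its levels were 44.1, 49.5 and 39.7 CPM in control against 141, 131 and 129 CPM, a log2 fold change of 1.59 ± 0.11 (adjusted p = 6.25e-06). *Mrpl46* (chr7:78775236-78783531, minus strand), another mitochondrion-specific protein of the large subunit, was at 119, 116 and 121 CPM in control. In the libraries labelled Kit-lo it was at 295, 301 and 330.0 CPM, with no overlap and a log2 fold change of 1.38 ± 0.08 (adjusted p = 2.54e-06).

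2 members with bacterial counterparts rose by slightly more than 2-fold. *Mrps2* (chr2:28468066-28471178, plus strand), a protein of the small subunit, was at 97.7, 102 and 103 CPM in control whereas the libraries labelled Kit-lo had 232, 206 and 218 CPM (log2 fold change 1.11 ± 0.08, adjusted p = 9.47e-06). *Mrpl14* (chr17:45686322-45698495, plus strand) encodes a protein of the large subunit at the face that meets the small subunit. Its levels were 55.9, 59.4 and 54.3 CPM in control and 113, 121 and 131 CPM in the libraries labelled Kit-lo, so that each of the latter exceeded all of the former (log2 fold change 1.11 ± 0.10, adjusted p = 2.61e-05).

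The remaining 4 called members rose by 1.53- to 1.70-fold. *Mrps7* (chr11:115603925-115608036, plus strand), a protein of the head of the small subunit, was at 167, 151 and 150.2 CPM in control and 262, 254 and 281 CPM in the libraries labelled Kit-lo (log2 fold change 0.77 ± 0.08, adjusted p = 8.83e-05). *Mrps12*, a protein of the decoding center, was at 96.5, 91.9 and 86.6 CPM against 151, 150.5 and 163 CPM (0.75 ± 0.09, adjusted p = 0.000146). *Mrpl51*, a mitochondrion-specific protein of the large subunit, was at 138, 119.96 and 129.7 CPM against 202, 209.8 and 199.8 CPM (0.66 ± 0.08, adjusted p = 0.000278). In each of these genes the groups were separate by a wide margin. *Mrps23*, mitochondrion-specific and of the small subunit, was much scarcer, at 9.77, 10.5 and 9.73 CPM against 14.3, 15.6 and 16.0 CPM (0.62 ± 0.17, adjusted p = 0.017), and its call was lost without control replicate 1 (adjusted p = 0.061) or control replicate 3 (0.066) and under upper quartile scaling, where the log2 fold change was 0.58. *Mrpl16*, a large subunit protein with a bacterial counterpart, lay just short of the fold threshold, at 151, 152 and 157 CPM against 224, 230.4 and 235 CPM (0.58 ± 0.07, adjusted p = 0.000255).

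Both called falls were in mitochondrion-specific members. *Mrpl52* (chr14:54426909-54429756, plus strand), of the large subunit, was at 16.2, 14.4 and 12.0 CPM in control and 9.19, 6.46 and 5.37 CPM in the libraries labelled Kit-lo. The groups did not overlap at these low levels, with a log2 fold change of -1.02 ± 0.24 (adjusted p = 0.00872). *Mrps27* (chr13:99344786-99415562, plus strand), a pentatricopeptide repeat protein of the small subunit, was at 165, 147 and 178 CPM in control and 98.1, 88.4 and 99.7 CPM in the libraries labelled Kit-lo (log2 fold change -0.78 ± 0.10, adjusted p = 0.000278). The other 8 members lower by adjusted p alone fell by less than 1.5-fold. Among them were *Mrpl24*, at 169.6, 179 and 186 CPM against 126, 116 and 129.8 CPM (-0.52 ± 0.08, adjusted p = 0.00106), and *Mrpl39*, at 42.1, 40.4 and 35.9 CPM against 25.9, 29.5 and 27.2 CPM (-0.52 ± 0.13, adjusted p = 0.010). *Mrps15*, *Mrpl42*, *Mrpl47*, *Mrpl1*, *Mrpl2* and *Mrps5* had log2 fold changes of -0.46, -0.45, -0.43, -0.40, -0.35 and -0.27. Of these, *Mrpl1* forms the stalk opposite that of *Mrpl12*, and *Mrpl2* was among the 5 members highest per length in control.

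**Figure D2:**
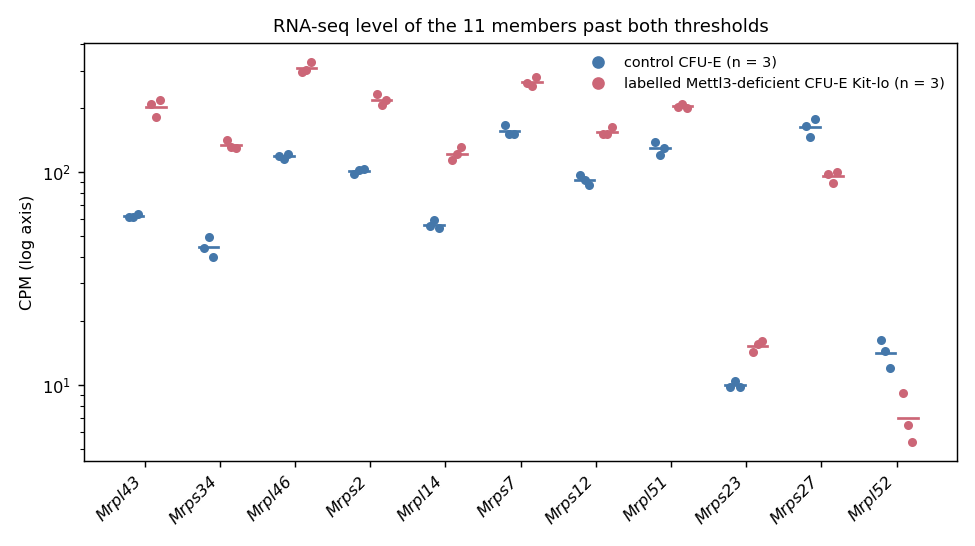
CPM in each RNA-seq library, on a log axis, for the 9 members that rose and the 2 that fell by a fold of at least 1.5. Points are libraries (3 control and 3 labelled Mettl3-deficient CFU-E Kit-lo), bars are group means, and the groups of no gene overlap.

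The members that differed were spread over both subunits and over both kinds of protein. In the large subunit 4 of 51 members rose and 1 fell past the fold threshold, with a median log2 fold change of 0.13, and in the small subunit 5 of 26 rose and 1 fell, with a median of 0.11. Of 46 members with a bacterial counterpart 4 rose and 0 fell past the fold threshold, where 16 were higher and 6 lower by adjusted p alone. Of 31 mitochondrion-specific members 5 rose and 2 fell, with 10 higher and 4 lower by adjusted p alone. Over all genes the shares were 12.1% higher and 9.83% lower past the fold threshold, and 17.6% and 16.9% by adjusted p alone, and the classes were not tested against each other. The 3 genes that share the S18 name lay apart, since *Mrps18a*, whose product sits in the large subunit, was at 179, 166 and 156 CPM in control and 234, 224 and 223 CPM in the libraries labelled Kit-lo (0.44 ± 0.08, adjusted p = 0.00229). *Mrps18b* was at 39.9, 33.6 and 32.3 CPM against 40.7, 35.2 and 38.0 CPM, and *Mrps18c* at 46.9, 42.5 and 42.9 CPM against 40.5, 41.7 and 36.4 CPM and neither was called (adjusted p = 0.594 and 0.328). The groups overlapped for *Mrps18b* and were separate by a small margin, with lower values in the libraries labelled Kit-lo, for *Mrps18c*.

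Several members with functions of their own had unlike values. *Mrpl44*, a large subunit protein that resembles ribonuclease III, was at 60.1, 63.1 and 64.4 CPM in control and 81.8, 86.8 and 79.9 CPM in the libraries labelled Kit-lo (0.41 ± 0.09, adjusted p = 0.0076). *Mrps6*, a small subunit protein with a bacterial counterpart, was at 23.8, 25.1 and 23.1 CPM against 32.7, 33.5 and 36.2 CPM (0.51 ± 0.12, adjusted p = 0.0103). Both were thus higher without reaching the fold threshold. *Mrpl12*, the most abundant member, was at 608, 535 and 612 CPM against 707, 612 and 648 CPM, where the groups overlapped (0.16 ± 0.09, adjusted p = 0.169). The peptidyl-tRNA hydrolase *Mrpl58* (9.16 to 12.2 against 10.6 to 11.7 CPM), the large subunit protein *Mrpl3* (162 to 189 against 148 to 174 CPM) and the large subunit protein *Mrps30* (100.5 to 113 against 103 to 140.0 CPM) overlapped between groups and were not called. *Mrps36*, the member outside the ribosome, was at 5.66 to 7.67 CPM against 5.79 to 8.64 CPM and was not called either.

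Promoters of the family were read from RefSeq on the build GRCm38.p6, as the 300 bases from 250 before to 50 after each start, and 69 of the 78 members were found there. Each window was searched on both strands for the ETS core CCGGAAG, which the factor GABP (NRF2) binds, for the NRF1 element (GCGC, any base, TGCGC) and for the YY1 element AAGATGGC. These factors are known regulators of nuclear genes for mitochondrial proteins. The ETS core was found in 25 of the 69 members (36.2%) against 16.4% of the 11547 promoters of genes in the count tables, the NRF1 element in 13 (18.8%) against 9.24%, and the YY1 element in 12 (17.4%) against 4.29%. Matches of different elements overlapped in 0 members, and 42 members (60.9%) held at least 1 of the 3 elements, against 26.7% of the genes in the tables. The E-box CACGTG was found in 7.25% of members and 9.32% of those genes, and the GATA site AGATAA in 15.9% and 7.82%.

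The elements stood in promoters of members that rose, of members that fell and of members that did neither. Of the 8 members found that rose past the fold threshold, 4 held the ETS core, 1 the NRF1 element and 2 the YY1 element, and *Mrpl46* and *Mrps2* held 0 of these. At least 1 was found in 14 of 22 members with higher adjusted-p calls, in 4 of 10 with lower calls and in 24 of 37 that were not called. Windows from 150 bases before to 30 after the start are printed for 3 members that rose and hold an ETS core, for *Mrps2*, which rose and holds none of the elements, and for both that fell, 5′ to 3′ on the gene's own strand, with matches to the 3 elements in capitals, where CTTCCGG is the ETS core read on the other strand. The window of *Mrpl43*, with the largest rise, spans chr19:45006413-45006592 on the minus strand and holds 2 ETS cores. That of *Mrps12* spans chr7:28741792-28741971 on the minus strand and holds 1 ETS core, with a YY1 match further upstream outside the printed bases. That of *Mrps23* spans chr11:88204238-88204417 on the plus strand and holds 1 ETS core, and that of *Mrps2* spans chr2:28467916-28468095 on the plus strand. Of the falls, the window of *Mrpl52* spans chr14:54426759-54426938 and holds 2 ETS cores, and that of *Mrps27* spans chr13:99344636-99344815 and holds an ETS core and a YY1 element, both on the plus strand.
Mrpl43: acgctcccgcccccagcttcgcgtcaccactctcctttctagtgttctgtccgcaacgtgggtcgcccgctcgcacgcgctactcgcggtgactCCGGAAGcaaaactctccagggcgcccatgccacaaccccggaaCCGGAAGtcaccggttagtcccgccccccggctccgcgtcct
Mrps12: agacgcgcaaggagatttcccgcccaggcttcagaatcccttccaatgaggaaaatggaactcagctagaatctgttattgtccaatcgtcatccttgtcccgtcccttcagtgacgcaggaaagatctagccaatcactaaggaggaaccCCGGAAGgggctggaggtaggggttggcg
Mrps23: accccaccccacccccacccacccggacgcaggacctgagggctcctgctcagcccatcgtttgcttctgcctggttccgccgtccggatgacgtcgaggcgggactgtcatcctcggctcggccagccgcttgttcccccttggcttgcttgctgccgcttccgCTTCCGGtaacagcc
Mrps2: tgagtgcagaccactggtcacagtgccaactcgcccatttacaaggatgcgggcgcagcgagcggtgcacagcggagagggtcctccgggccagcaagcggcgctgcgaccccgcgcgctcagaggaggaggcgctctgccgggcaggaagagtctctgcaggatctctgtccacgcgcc
Mrpl52: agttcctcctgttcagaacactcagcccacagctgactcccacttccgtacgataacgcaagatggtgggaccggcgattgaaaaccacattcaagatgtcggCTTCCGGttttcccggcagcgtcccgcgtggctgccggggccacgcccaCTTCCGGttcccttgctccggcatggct
Mrps27: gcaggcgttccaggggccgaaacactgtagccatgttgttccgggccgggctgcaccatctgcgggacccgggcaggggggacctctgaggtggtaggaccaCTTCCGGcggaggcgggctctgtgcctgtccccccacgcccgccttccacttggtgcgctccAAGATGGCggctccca

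The same ETS letters are thus present in the promoter of the member that rose most and in that of the member that fell most. Among the factors named for these elements, *Nrf1* was higher by adjusted p (0.32 ± 0.10, adjusted p = 0.0369), with group means of 110.2 CPM in control and 138 CPM in the libraries labelled Kit-lo. The ETS factor subunits *Gabpa* (0.23 ± 0.10, adjusted p = 0.101) and *Gabpb1* (0.14 ± 0.16, adjusted p = 0.550) and *Yy1* (0.21 ± 0.13, adjusted p = 0.264) were not called. Of the 12 tested genes for mitochondrial transcription and its nuclear regulators, the coactivator *Pprc1* rose past the fold threshold, from a mean of 126 to 193 CPM (0.62 ± 0.11, adjusted p = 0.0021), and 0 fell past it. Over all genes tested, 12.1% rose and 9.83% fell past this threshold. *Tfam*, which packages mitochondrial DNA, was lower by adjusted p alone, with means of 198 and 152 CPM (-0.38 ± 0.11, adjusted p = 0.0203), as was *Myc*, at 864 and 666 CPM (-0.38 ± 0.11, adjusted p = 0.0253).

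Many members lie close to another gene. A protein-coding gene on the opposite strand starts within 1000 bases of the start of 33 members, and 31 such member and partner pairs could be tested. Among the partners, 3 rose past the fold threshold, namely *Wdfy1* opposite *Mrpl44*, *Helq* opposite *Mrps18c* and *Mrpl46* opposite *Mrps11*, and 3 fell, namely *Klc4* opposite *Mrpl2*, *Fau* opposite *Mrpl49* and *Zfp661* opposite *Mrps5*. Over all genes tested, 12.1% rose and 9.83% fell past it. The 31 pairs count *Mrpl46* and *Mrps11* from each side. *Mrpl46* and *Mrps11*, both members, share such a start region, and they differed by unlike amounts: *Mrps11* was at 154, 157 and 159 CPM in control and 169, 195 and 192 CPM in the libraries labelled Kit-lo (0.24 ± 0.09, adjusted p = 0.0506), against 1.38 ± 0.08 for *Mrpl46*. *Mrpl43* starts opposite *Twnk*, the mitochondrial DNA helicase, whose mean went from 88.2 to 66.4 CPM (-0.41 ± 0.14, adjusted p = 0.0455), in the direction opposite to that of *Mrpl43*. The partners of *Mrps34*, *Mrps12*, *Mrpl51* and *Mrps27*, namely *Eme2*, *Sars2*, *Ncapd2* and *Ptcd2*, had log2 fold changes of 0.10, -0.29, 0.04 and -0.11 and were not called. In the 8 pairs with a member past the fold threshold, 0 partners were called in the direction of the member.

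**Figure D3:**
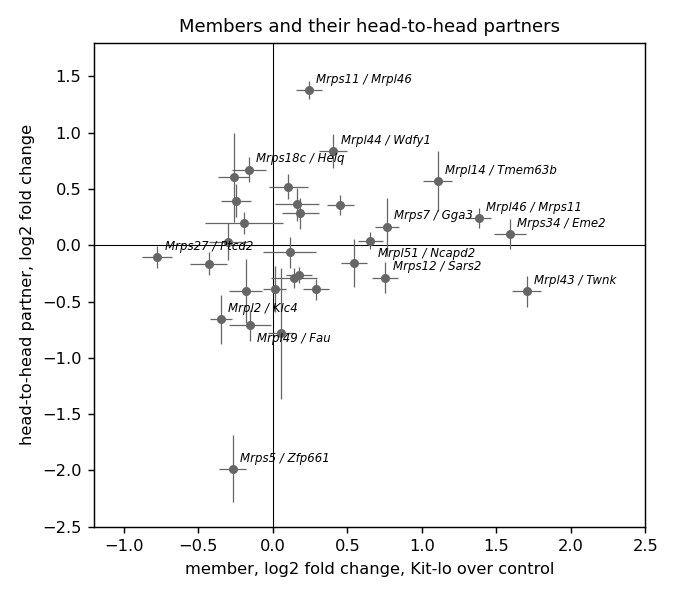
Log2 fold change, libraries labelled Kit-lo over control, of members (x axis) and of the protein-coding gene that starts within 1000 bases on the opposite strand (y axis) for 31 tested pairs, with bars of 1 standard error. Mrpl46 and Mrps11 appear in both roles, and the pairs with the largest member differences lie between -0.41 (Twnk) and 0.57 (Tmem63b) on the y axis.

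Overlap of exons limits how some of these counts can be read, since the strand used in counting is not given in the sources used here. In 28 members some exonic bases overlap a gene on the opposite strand, and in 14 more than 10% do. For *Mrps34*, 63.4% of its exonic bases overlap *Mapk8ip3* (0.11 ± 0.17, adjusted p = 0.645) on the other strand, and 37.0% overlap *Nme3* on the same strand, which was also higher (0.65 ± 0.21, adjusted p = 0.0324). For *Mrpl43*, 33.4% overlap *Twnk*, for *Mrpl46* 12.2% overlap *Mrps11* and for *Mrpl14* 11.2% overlap *Tmem63b* (0.57 ± 0.26, adjusted p = 0.127). *Mrps7* shares 5.74% of its exonic bases with *Mif4gd*, which was higher as well (0.66 ± 0.08, adjusted p = 0.000248). How far reads of these neighbors entered the members' counts was not tested. *Mrps2*, *Mrps12* and *Mrps23* overlap no other annotated exon.

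Of 5 tested proteins of the mitochondrial ribosome with other symbols, 1 rose and 1 fell past the fold threshold. Over all genes tested, 12.1% rose and 9.83% fell past it, which are the shares to set beside each list here. *Dap3*, a GTP-binding protein of the small subunit, fell from a mean of 269.9 to 164 CPM (-0.72 ± 0.08, adjusted p = 9.19e-05), and *Gadd45gip1*, of the large subunit, rose from 112 to 180.1 CPM (0.68 ± 0.08, adjusted p = 0.000185). *Ptcd3* was lower (-0.33) and *Chchd1* higher (0.31) by adjusted p alone, and *Aurkaip1* was not called (0.05). Among 26 tested genes for ribosome assembly and modification of its RNA, 7 rose and 1 fell past the fold threshold. Of the methyltransferases of the large ribosomal RNA, *Mrm2* rose from 26.2 to 48.7 CPM (0.89 ± 0.15, adjusted p = 0.00114) and *Mrm3* from 21.5 to 44.1 CPM (1.04 ± 0.15, adjusted p = 0.000566), whereas *Mrm1* was not called (-0.21 ± 0.13, adjusted p = 0.241). The helicase *Ddx28* rose from 58.5 to 112 CPM (0.93 ± 0.10, adjusted p = 7.37e-05), and *Mterf4*, *Rbfa*, *Ngrn* and *Mpv17l2* rose by 0.72, 0.65, 0.62 and 0.62 on the log2 scale. The fall was that of *Rpusd4*, a pseudouridine synthase, from 47.5 to 18.2 CPM (-1.38 ± 0.12, adjusted p = 2.61e-05). Of 14 translation factors, the initiation factor *Mtif3* rose past the fold threshold (0.93 ± 0.17, adjusted p = 0.0022) and 0 fell past it. These lists had median log2 fold changes of 0.05, 0.11 and -0.0057, in that order.

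The messenger RNAs that this ribosome translates and the proteins of the cytosolic ribosome had other values than the members. All 13 mitochondrial messenger RNAs had negative log2 fold changes, with a median of -0.25, although 12 of 13 did with library size only or without Kit-lo replicate 1 and 11 of 13 without Kit-lo replicate 2. Of the 13, 1 was called, *mt-Atp8* (-0.53 ± 0.18, adjusted p = 0.0395), where 16.9% of all genes tested were lower by adjusted p alone. The summed level of the 13 was 22707, 26497 and 26130 CPM in control and 17410, 17840 and 29181 CPM in the libraries labelled Kit-lo. Kit-lo replicate 3 thus lay above all control libraries and apart from its group, and without it the median was -0.46 and 9 of the 13 were lower by adjusted p. In that same setting the members gave 9 rises and 2 falls past the fold threshold, as with it.

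Of 86 tested genes for cytosolic ribosomal proteins, 1 rose and 22 fell past the fold threshold, and 3 were higher and 63 lower by adjusted p alone. Their median log2 fold change was -0.49, against 0.12 for the mitochondrial ribosomal proteins, and this difference between the families was not tested. The summed level of the 87 in the table was 34892, 38744 and 36267 CPM in control and 23527, 24230 and 31253 CPM in the libraries labelled Kit-lo, again with replicate 3 nearest to control. The number of falls was 34 without Kit-lo replicate 3 and 36 without control replicate 3. The medians kept their signs in both families under each scaling tried, from 0.087 to 0.18 for the members and from -0.53 to -0.44 for the cytosolic proteins.

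**Figure D4:**
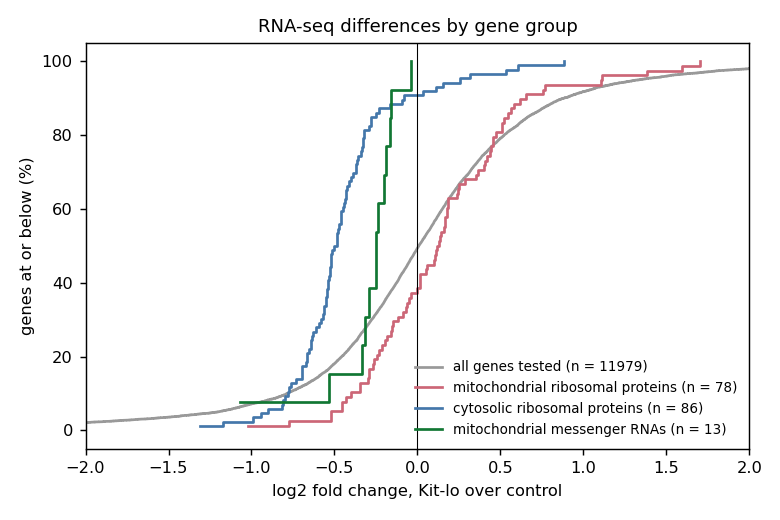
Cumulative percentage of genes by log2 fold change, libraries labelled Kit-lo over control, for all genes tested, the 78 members, 86 cytosolic ribosomal protein genes and 13 mitochondrial messenger RNAs. The x axis is limited to the range from -2 to 2, the members cross the level of 50% at 0.12 and the cytosolic proteins at -0.49.

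In the m6A libraries, which compare IP with input in control CFU-E cells, few members passed the adjusted p without a replicate block. The anti-m6A IP enriches RNA that carries the mark, and the counts here are per gene, so they do not place the mark within a transcript. By adjusted p, 1 member was higher in IP and 2 were lower, against 7.9% and 7.86% of all genes tested, and 75 were not called. With replicate number as a block, 6 were higher and 9 lower, although the replicate numbers share no stated origin. The shares of all genes called with the block are not reported here. The groups of 2 libraries did not overlap for 6 members higher and 26 lower in IP, against 32.2% and 28.7% of all genes. The median log2 fold change of IP over input was -0.12 over the members and 0.056 over all genes. Its sign depended on scaling and on a library: it was 0.030 with library size only, 0.0099 with upper quartile scaling and 0.043 without IP replicate 1. The gap between members and all genes was -0.18 as reported and between -0.18 and -0.17 under the other scalings, and it was 0.049 without IP replicate 1, -0.37 without IP replicate 2 and -0.26 without input replicate 1. Standard errors were larger here, with a median of 0.23 over members against 0.10 in the RNA-seq, and in simulated data of this design 41 of 100 genes changed by 2-fold were recovered.

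*Mrpl9*, a large subunit protein with a bacterial counterpart (chr3:94443318-94451130, plus strand), was the member called higher in IP. It was at 21.3 and 20.7 CPM in input and at 43.5 and 37.0 CPM in IP, with no overlap (log2 fold change 0.94 ± 0.24, adjusted p = 0.0262). *Mrpl12* (chr11:120484613-120489065, plus strand) was lower in IP, at 1331 and 1245 CPM in input and 424 and 637 CPM in IP (-1.28 ± 0.26, adjusted p = 0.00852), and 13.1% of its exonic bases overlap the antisense gene *Gm16755*. The groups were far apart for this most abundant member. *Mrps7* was at 329 and 344 CPM in input and 178 and 222 CPM in IP (-0.75 ± 0.22, adjusted p = 0.0421). The call of *Mrpl12* was lost without input replicate 1, and the calls of *Mrpl9* and *Mrps7* were each lost without input replicate 1, input replicate 2 or IP replicate 1. Each of these fits leaves 1 library in a group, so a lost call does not show that it rested on the library left out. The log2 fold changes with a library left out were -1.60 to -1.03 for *Mrpl12*, 0.80 to 1.05 for *Mrpl9* and -0.92 to -0.62 for *Mrps7*. The call of *Mrps7* was also lost with upper quartile scaling (adjusted p = 0.098). *Mrps30* lay just outside, at 196 and 194 CPM in input against 135 and 95.4 CPM in IP (-0.76 ± 0.23, adjusted p = 0.0511).

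**Figure D5:**
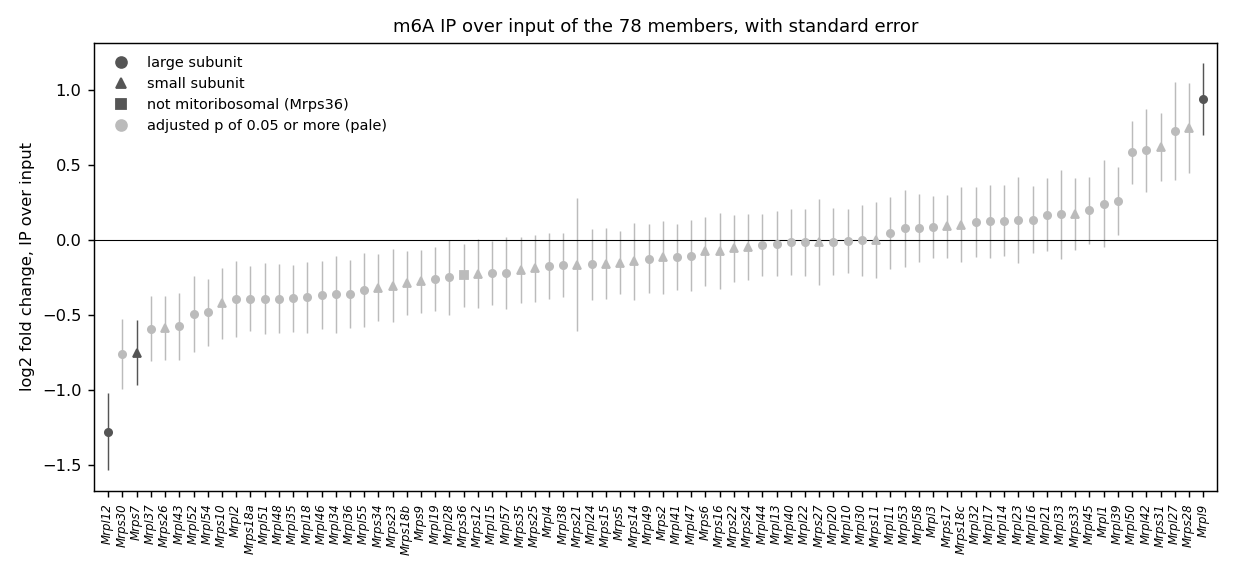
Log2 fold change of m6A IP over input in control CFU-E cells for the 78 members in order of size, with bars of 1 standard error (n = 2 and 2). Dark symbols passed an adjusted p of 0.05, which were Mrpl12 and Mrps7 at the left and Mrpl9 at the right.

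The letters GGACT, the commonest form of the sequence in which m6A is placed, occur in the chosen coding transcript of 63 of the 78 members (80.8%) and of 91.4% of the genes tested in the m6A table. Chosen from the annotation's basic set was the longest coding transcript marked principal, or the longest where none was so marked. Transcripts of members were shorter, with a median of 1302 bases against 2961, and per kilobase the medians were close, at 1.0 and 1.03. All 9 occurrences in the 3 called members are printed with 10 bases on either side, in capitals, because both directions of the call had them. In *Mrpl9* the first 3 are in coding exons and the last is in the 3′ UTR, in *Mrpl12* the first is coding and the other 2 are in the 3′ UTR, and in *Mrps7* both are in the 3′ UTR. They lie at chr3:94443379-94443383, chr3:94444655-94444659, chr3:94447792-94447796 and chr3:94448001-94448005 in *Mrpl9*, at chr11:120484737-120484741, chr11:120488448-120488452 and chr11:120488456-120488460 in *Mrpl12*, and at chr11:115607574-115607578 and chr11:115607849-115607853 in *Mrps7*, all on the plus strand of GRCm38.
Mrpl9: cccggggttaGGACTctgtggtggg
Mrpl9: cctttctcagGGACTggcagtgtat
Mrpl9: gactgtaaatGGACTcgacactgtg
Mrpl9: gagaacatgtGGACTcagcagactg
Mrpl12: gccacggcttGGACTccggggggca
Mrpl12: atggttatgaGGACTtacggactag
Mrpl12: gaggacttacGGACTagagttctgg
Mrps7: ggtccaatctGGACTagaataaaga
Mrps7: cagctgcagtGGACTcataagtaaa

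A transcript with 3 such sequences (*Mrpl12*) was thus lower in IP while one with 4 (*Mrpl9*) was higher. Over the 78 members, the log2 fold change of IP over input had a Pearson's r of 0.04 and a Spearman's rho of -0.18 with the number of GGACT per kilobase, and of -0.07 and -0.04 with the log2 of transcript length, which are descriptions across genes that share libraries. Over 11419 genes tested in the m6A table, those with transcript length were 0.25 and 0.33. Genes called higher in IP had a median transcript of 4115 bases and those called lower one of 2286 bases. The part of length in the median of the members was not tested.

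Side by side, the readouts did not single out the same members in the fits without a replicate block, from which the calls here are given. With such a block in the m6A fit, *Mrpl43* and *Mrpl52* were called lower in IP, as was *Mrps7*. Of the 9 members that rose past the fold threshold in the RNA-seq, *Mrps7* was also called in the m6A libraries, as lower in IP, and the log2 fold changes of IP over input of the 9 ran from -0.75 to 0.13 with a median of -0.32. For *Mrpl43* the IP value was -0.58 ± 0.22, with 72.3 and 76.4 CPM in input and 45.3 and 54.5 CPM in IP, which did not pass (adjusted p = 0.105). *Mrps34* (-0.32), *Mrpl46* (-0.37), *Mrps2* (-0.12) and *Mrpl14* (0.13) were not called in IP over input. Neither of the members that fell in the RNA-seq was called, with -0.49 ± 0.25 for *Mrpl52* and -0.01 ± 0.29 for *Mrps27*. Over the 42 members without an RNA-seq call the median was -0.06, and across all 78 members the log2 fold changes of the 2 experiments had a Pearson's r of -0.18. Since the m6A libraries hold control cells only, they do not show how the mark differed in the libraries labelled Kit-lo.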

How the data were processed

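RNA-seq (Smart-seq2) and m6A (SLIM-seq) libraries of sorted CFU-E cells were analysed from the tables of estimated counts per gene that the authors deposited, which hold whole numbers and are not normalized. Per the study's methods, reads were trimmed with fastp 0.23.4, quantified with kallisto 0.48.0 on mm10 and summed to genes with tximport, where the submitters' notes also name GRCm39. Use of UMIs and of strand in counting is not given in the sources used here. The 6 ProE samples of the 16 were not analysed here.

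Counts were tested with edgeR 4.0.16 in R 4.3.3 (filterByExpr, TMM, quasi-likelihood test, Benjamini-Hochberg adjustment over all genes tested), comparing 3 libraries labelled Mettl3-deficient Kit-lo with 3 control, and 2 IP with 2 input. CPM were computed on tested library sizes times their TMM factors, and SE is the log2 fold change divided by the square root of F. RNA-seq totals of 17429262 to 21329242 counts gave a biological coefficient of variation of 19.1%, and the m6A libraries 21.9%. In simulated counts, 86 of 100 genes changed by 2-fold were recovered in the RNA-seq design and 41 of 100 in the m6A design, with 14 and 6 false calls. Positions and exons were from GENCODE vM21 (GRCm38), whose gene symbols matched all 78 members, and promoters from RefSeq.

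Named were the 10 members that rose most and the 10 that fell most, of those with an adjusted p under 0.05 and no overlap, members called in IP, 12 members named for their role and the 5 highest and 5 lowest per length. Other genes were from lists of pathways and markers, and neighbors were named for their position. The members and lists were chosen with earlier results of these data known. Alternatives were DESeq2 1.42.0, other scalings, no filter, a replicate block and leaving out each library. Replicate numbers did not pair the RNA-seq libraries (correlations of deviations -0.0719 to 0.0344).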

Additional observations from a re-analysis of the deposited data

How the results depend on the processing

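The counts of members past the fold threshold were 9 and 2 with DESeq2 as with edgeR, and the same genes were called. Leaving out each library gave 8 to 11 rises and 2 to 3 falls, and by adjusted p alone 19 to 26 and 7 to 11. With library size only there were 12 rises, with *Mrpl16*, *Mrpl34* and *Mrpl40* added. The median of the members was 0.18 with library size only, 0.0873 with upper quartile scaling and 0.0791 to 0.166 with a library left out. In the m6A libraries, members higher and lower in IP numbered 3 and 2 with library size only, 3 and 1 with upper quartile scaling, and 0 to 2 and 0 to 3 with a library left out. DESeq2 gave 4 lower. The cause of these differences was not tested. The median in IP over input was -0.30 to 0.043 with a library left out.

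With a replicate block, members higher and lower in IP numbered 6 and 9, although the 2 numbers share no stated origin (correlation of deviations 0.205), and in the RNA-seq the replicate block gave 9 rises and 2 falls, the same genes. With the replicate block, uncalled *Mrpl58* was at 0.00928 and *Mrpl20* at -0.0286. In IP over input, 24 of the 78 members had positive values as reported, 42 with library size only, 40 with upper quartile scaling and 12 to 41 with a library left out. Among the named members, these values turned sign. In the RNA-seq, *Mrpl58* was at 0.000314 with DESeq2, 0.000739 with its size factors, 0.0497 with library size only and -0.13 to 0.069 with a library left out. *Mrpl20* was at -0.0237 with upper quartile scaling, -0.00416 without the filter and -0.25 to 0.24 with a library left out, *Mrpl36* at -0.0233, -0.00417 and -0.027 to 0.073, and *Mrpl3* at -0.12 to 0.0012 with a library left out. In IP over input, *Mrpl44*, *Mrps5* and *Mrps6* were at 0.12, 0.0088 and 0.068 with library size only, and *Mrpl44* and *Mrps6* at 0.093 and 0.059 with upper quartile scaling. With a library left out, *Mrps6* was at -0.28 to 0.082, *Mrpl58* at -0.15 to 0.26 and *Mrps18c* at -0.23 to 0.35. The m6A comparison has 2 libraries a group.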

Other observations

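The same genes stood at unlike levels in the input libraries of the m6A experiment and in the RNA-seq of control CFU-E cells, which were made by different protocols and normalized separately. The ratio of the input level to the RNA-seq level in CPM was 0.234 for *Mrpl9*, the lowest, and 85.9 for *Mrpl20*, the highest, with a median of 2.88 over the 78 members. *Mrpl20* was at 3.18 CPM in RNA-seq and 273 CPM in input. Across the 78 genes, the log2 levels of the 2 protocols had a Pearson's r of 0.20 and a Spearman's rho of 0.21. What part library construction and counting have in these ratios was not tested.

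Among genes around the mitochondrial ribosome, some had larger values of IP over input than any member. *Ptcd3*, a small subunit protein without the family's symbol, was higher in IP (2.40 ± 0.30 on the log2 scale, adjusted p = 0.0005 by edgeR), as were the elongation factor *Gfm1* (1.41) and the RNA-binding *Lrpprc* (1.31). *Rcc1l*, an assembly factor, and *Mtrf1l*, a release factor, were lower (-1.99 and -1.89).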
